A study of Rattus norvegicus with 6 samples.

Results

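Glycolysis, the pentose phosphate pathway and a set of genes under the control of hypoxia-inducible factor (HIF) were followed through 38 named genes in rat fibroblast-like synoviocytes of rheumatoid arthritis (RA-FLS), the cells that line the joint and invade cartilage in this disease. The members were taken by gene name from a table of 34156 genes. Of the 38, 35 were listed under their own names, and Car9 was listed as Ca9, an older name of the same gene, so that 36 were found. Gapdh and Pgd were not found under these names and are not analysed here as members. Epas1, which encodes the HIF-2α subunit, and Pdk4 had 0 counts in all 6 libraries, which allows up to 3 counts in each, and this left 34 members with enough counts to test.

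The 6 libraries were poly(A)-selected RNA-seq libraries of wild-type RA-FLS, which the study obtained from a commercial source and passaged in high-glucose medium with serum. The 3 TNF-α libraries came from cells given TNF-α at 10 ng/ml, and the 3 TNF-α+EMO libraries from cells given the same TNF-α together with emodin (EMO), an anthraquinone of rhubarb, at 80 μmol/L. Both groups carried TNF-α, cells without TNF-α are not analysed here, and the comparison addresses what EMO did on top of the cytokine. The labels give Day 5 as the time, while the methods of the study give 24 h of treatment. The methods of the study call the 3 replicates of each condition biological, but whether they were separate cultures is not stated. The p-values below therefore measure only the spread between these libraries, which may be technical.

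Glycolysis splits glucose into pyruvate and yields ATP and NADH in the cytosol. The pyruvate is either reduced to lactate, which regenerates NAD+, or oxidised by pyruvate dehydrogenase in the mitochondrion. The pentose phosphate pathway branches off after hexokinase and supplies NADPH and ribose. HIF is held low in oxygenated cells because the prolyl hydroxylases mark its α subunit for destruction, and in hypoxia it raises the genes of glucose uptake, glycolysis and lactate release. Synovial tissue in rheumatoid arthritis is known to be poor in oxygen and rich in lactate.

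HIF binds DNA at hypoxia response elements with the core letters ACGTG or GCGTG. The 250 bases before the annotated start were searched for these cores on both strands in the RefSeq promoters of build GRCr8, which differs from the build of the count table, Rnor_6.0. The palindrome CACGTG holds ACGTG on both strands and counts as 2 overlapping matches. A promoter was given for 35 of the 38 members, and those of Slc2a3, Pgk1 and Ndrg1 were not. Of the 35, 23 (65.7%) held a core, against 36.7% of all 33469 promoters in the table, and 3 members with more than 1 start counted as holding one if any of their windows did. The 33469 promoters were counted singly and were not matched to the members in base composition or expression, so these shares are not compared like for like. The share was 10 of 14 (71.4%) among the members that rose with EMO and 10 of 13 (76.9%) among those that fell. A match is a description of the letters and not a binding site.

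The following windows are examples chosen after the values were seen: 3 genes that fell (Pfkm and Car9, with the lowest log2 fold changes, and Ldha, a standard HIF target) and 3 that rose (Aldoa, Taldo1 and Bnip3). They are written 5′ to 3′ on the strand of the gene, ending 1 base before the start, and capitals mark the cores on either strand. They lie at chr7:131113849-131114098 (Pfkm, plus strand), chr5:62558774-62559023 (Car9, plus strand), chr1:106507842-106508091 (Ldha, plus strand), chr1:190836778-190837027 (Aldoa, minus strand, the only one of its 3 windows with a core), chr1:205922946-205923195 (Taldo1, plus strand) and chr1:203154963-203155212 (Bnip3, minus strand), all in GRCr8.
Pfkm: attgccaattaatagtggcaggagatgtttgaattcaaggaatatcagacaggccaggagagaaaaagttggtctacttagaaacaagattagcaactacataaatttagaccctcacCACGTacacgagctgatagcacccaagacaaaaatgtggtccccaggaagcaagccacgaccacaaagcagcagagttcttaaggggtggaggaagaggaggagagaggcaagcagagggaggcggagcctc
Car9: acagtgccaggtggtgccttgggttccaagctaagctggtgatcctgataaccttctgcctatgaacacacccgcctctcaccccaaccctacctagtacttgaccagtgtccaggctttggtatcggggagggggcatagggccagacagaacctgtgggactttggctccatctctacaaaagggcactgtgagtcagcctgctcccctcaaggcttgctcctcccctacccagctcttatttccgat
Ldha: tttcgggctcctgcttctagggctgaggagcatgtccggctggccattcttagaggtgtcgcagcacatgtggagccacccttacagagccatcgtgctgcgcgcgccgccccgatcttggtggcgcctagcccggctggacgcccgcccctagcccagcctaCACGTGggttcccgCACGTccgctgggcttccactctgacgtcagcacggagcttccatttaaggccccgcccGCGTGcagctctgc
Aldoa: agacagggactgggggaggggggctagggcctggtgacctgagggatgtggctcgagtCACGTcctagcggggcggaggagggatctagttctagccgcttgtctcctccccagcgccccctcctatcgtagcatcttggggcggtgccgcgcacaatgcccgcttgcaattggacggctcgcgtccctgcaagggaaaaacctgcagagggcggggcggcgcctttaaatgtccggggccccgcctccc
Taldo1: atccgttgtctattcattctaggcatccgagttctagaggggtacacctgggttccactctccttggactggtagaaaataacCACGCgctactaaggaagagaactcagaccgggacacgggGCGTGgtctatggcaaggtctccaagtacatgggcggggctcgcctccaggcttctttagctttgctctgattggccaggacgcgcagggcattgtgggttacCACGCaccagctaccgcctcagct
Bnip3: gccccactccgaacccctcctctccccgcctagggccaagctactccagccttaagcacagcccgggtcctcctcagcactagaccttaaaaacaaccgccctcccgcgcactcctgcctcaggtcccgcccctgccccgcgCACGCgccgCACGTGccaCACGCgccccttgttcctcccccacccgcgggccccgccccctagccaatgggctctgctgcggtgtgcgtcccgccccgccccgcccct
The Ldha window, of a gene that fell, held 4 cores, and the Bnip3 window, of a gene that rose, also held 4. Taldo1 held 3, Pfkm and the Aldoa window held 1 each, and the window of Car9, a classical HIF target, held none of these letters. Among members that fell and are not shown, Egln3 held none, Aldoc 3 and Ldhb 1.

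The libraries held 16813322 to 17794455 counts, and a count of 3 was taken as the floor below which a gene was not distinguishable from 0. TNF-α+EMO replicate 3 stood apart from the other replicates of its group: the mean chi-square per gene was 25 against replicate 1 and 16 against replicate 2, and 4.75 to 6.66 in the other pairs of the same group. Mitochondrially encoded genes took 3.35% to 3.58% of the counts in TNF-α and 0.363% to 0.399% in TNF-α+EMO. Of 12 fibroblast markers 11 were found, and their summed level was 220517 to 241055 normalized counts in TNF-α and 35248 to 37920 in TNF-α+EMO. Most of the latter was Vim (61464 and 32387), and the other 10 summed to 158649 to 178489 and 4232 to 4320. Mean levels went from 111181 to 3709 for Col1a1, from 20844 to 216 for Pdgfra, from 11635 to 26.7 for Col3a1 and from 11794 to 45.4 for Vcam1, while Fap was at 0 in every TNF-α+EMO library and Thy1 and Prg4 had at most 7 and 4 counts in any library. Of the markers of other cells, Ptprc had 0 to 1 count and Kdr and Epcam 0 in every library, while Krt8, Cd14 and Cd68 were counted in both groups, and Acta2 (442 to 490 counts), Myh11 (355 to 405) and Vwf (54 to 56) in TNF-α. The summed levels were 1199 to 1301 against 747 to 818 for 6 macrophage markers, 69.2 to 76.5 against 13.2 to 21.7 for 4 endothelial markers, 9950 to 10812 against 1968 to 2304 for 6 epithelial markers and 848 to 927 against 56.7 to 70.3 for 4 smooth muscle markers. Most of the macrophage sum was Cd14, whose mean level fell from 1093 to 510. Cd68 went the other way, from 153 to 256, and so did Itgam, from 0.327 to 12.3. Nearly all of the epithelial sum was Krt8 (10389 and 2140). The part of these shifts in the results below was not tested. In bulk RNA, fewer cells of a type and less RNA per cell cannot be told apart.

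Of the 34 members tested, 16 rose and 14 fell with EMO and 4 did not pass the test, which was the quasi-likelihood F test of edgeR with a threshold of 0.05 on the p adjusted by Benjamini-Hochberg over all genes tested. Most of the transcriptome moved as well: 80.9% of the 13614 genes tested passed, 39.4% in the higher and 41.4% in the lower direction, so the 88.2% of members that passed are to be read against that background. A log2 fold change beyond 1 in either direction was reached by 15 members (44.1%), against 47.3% of all genes tested. Beyond this threshold 5 of the 34 members were higher, against 19.5% of all genes tested, and 10 of the 34 were lower, against 27.8%. The 2 groups of libraries did not overlap for 30 members (88.2%), against 82.9% of all genes tested. The members had a median log2 fold change of -0.01, also with Aldoc at its floor value given below, and all genes tested one of -0.01. The members ranged from -4.26 (Car9) to 1.75 (Taldo1), and members of every role but the pentose phosphate pathway, whose 2 tested members rose, included both positive and negative values.

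**Figure D1:**
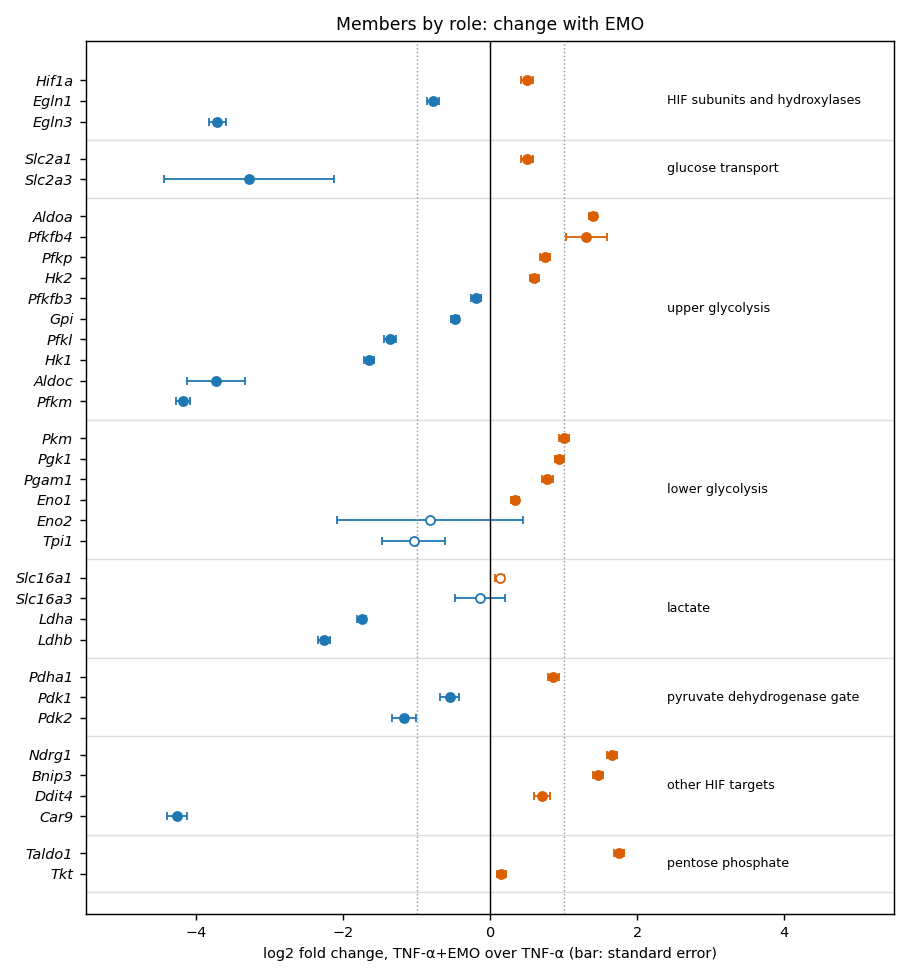
Log2 fold change of each of the 34 tested members, TNF-α+EMO over TNF-α (horizontal axis), grouped by role, with bars for the standard error. Filled points passed the test at an adjusted p under 0.05 (orange higher, blue lower), open points did not, and dotted lines mark a log2 fold change of 1 in either direction. Pfkm (-4.18) and Car9 (-4.26) lie far below 0, while 4 of the 6 lower glycolysis genes lie between 0.34 and 1.00. The point of Aldoc is the fitted value of a gene at the floor in TNF-α+EMO.

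The HIF system itself moved in unlike directions. Hif1a, which encodes the oxygen-regulated α subunit, was at 3549 ± 103 normalized counts (SD, n = 3; counts scaled to the mean effective library size) in TNF-α and at 5033 ± 586 in TNF-α+EMO, a log2 fold change of 0.50 (SE 0.08, edgeR adjusted p = 0.00016). Egln3 encodes the prolyl hydroxylase PHD3, which marks HIF-α for degradation and is itself a HIF target. Egln3 (chr6:75050329-75075795, Rnor_6.0) had 2318, 2248 and 2201 normalized counts in TNF-α, and 176, 197 and 143 were left in TNF-α+EMO. All 3 TNF-α+EMO libraries were far below the lowest TNF-α library, and Egln3 was 13.1-fold lower (log2 fold change -3.71, SE 0.11, edgeR adjusted p = 1.2e-10). Egln1, the main oxygen-sensing hydroxylase PHD2, fell by 0.78 on the log2 scale (SE 0.08, edgeR adjusted p = 5.8e-06), from 529 ± 12.7 to 309 ± 10.3 normalized counts. Hif1a and Egln1 did not overlap between the groups either.

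Among the glucose transporters, Slc2a1 (GLUT1), the common transporter of proliferating cells, rose by a log2 fold change of 0.50 (SE 0.08, edgeR adjusted p = 0.00018), from 1304 to 1340 normalized counts in TNF-α to 1731 to 2125 in TNF-α+EMO. Slc2a3 (GLUT3), a high-affinity transporter, was low, with 79.5, 14.6 and 88.6 normalized counts in TNF-α and 0, 16.4 and 2.04 in TNF-α+EMO. The groups overlapped through TNF-α replicate 2 and TNF-α+EMO replicate 2. Its log2 fold change was -3.28 (SE 1.16, edgeR adjusted p = 0.042), and it is uncertain, because a near-identical gene (LOC100909595) could share its reads. With the counts of that copy added it was -1.99 (SE 0.55, edgeR adjusted p = 0.0079). The call was lost without TNF-α replicate 1 (-3.12, edgeR adjusted p = 0.082), TNF-α replicate 3 (-2.98, 0.071), TNF-α+EMO replicate 1 (-2.69, 0.098) or TNF-α+EMO replicate 3 (-2.85, 0.18), and the log2 fold change was -5.71 without TNF-α+EMO replicate 2.

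Every one of the 10 upper glycolysis genes passed the test, 4 higher and 6 lower, where 80.9% of all genes tested passed. The isoenzymes of a step moved apart. Hexokinase traps glucose in the cell as glucose 6-phosphate. Hk1 (chr20:31912262-31956649), the ubiquitous isoenzyme, had 1910, 1857 and 1864 normalized counts in TNF-α and 578, 588 and 624 in TNF-α+EMO, without overlap. It was 3.14-fold lower (log2 fold change -1.65, SE 0.07, edgeR adjusted p = 1.7e-09). Hk2, the inducible isoenzyme and a HIF target, rose from 1651 ± 24.9 to 2507 ± 100.0 normalized counts (log2 fold change 0.60, SE 0.06, edgeR adjusted p = 2.8e-06). Gpi, which converts glucose 6-phosphate to fructose 6-phosphate, fell by 0.48 on the log2 scale (SE 0.05, edgeR adjusted p = 9.5e-06), from 6085 ± 116 to 4349 ± 132.

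Phosphofructokinase commits the sugar to glycolysis and is encoded by 3 genes, named for muscle, liver and platelet. Pfkm (chr7:139685573-139722132), the muscle gene, had 2200, 2121 and 2151 normalized counts in TNF-α and 102, 137 and 117 in TNF-α+EMO. The groups lay more than an order of magnitude apart, and Pfkm was 18.1-fold lower (log2 fold change -4.18, SE 0.10, edgeR adjusted p = 4.0e-11). Pfkl, the liver gene, had 1498, 1516 and 1604 normalized counts in TNF-α and 541, 597 and 657 in TNF-α+EMO. It also fell without overlap (log2 fold change -1.36, SE 0.08, edgeR adjusted p = 5.3e-08). Pfkp, the platelet gene, went the other way, from 814 ± 37.9 to 1368 ± 21.1 normalized counts (log2 fold change 0.75, SE 0.07, edgeR adjusted p = 1.6e-06).

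The bifunctional PFKFB enzymes set the level of fructose 2,6-bisphosphate, the activator of phosphofructokinase. Pfkfb4 had 27.5, 26.3 and 36.0 normalized counts in TNF-α and 51.6, 80.8 and 90.7 in TNF-α+EMO. All 3 TNF-α+EMO libraries were above the highest TNF-α library (log2 fold change 1.31, SE 0.28, edgeR adjusted p = 0.0013). Pfkfb3, the more abundant of the pair, differed little, with 667 ± 5.2 and 585 ± 15.6 normalized counts (log2 fold change -0.19, SE 0.07, edgeR adjusted p = 0.034), and its call was lost without TNF-α+EMO replicate 1 (edgeR adjusted p = 0.10) or replicate 2 (0.12). Aldolase then cleaves the 6-carbon sugar. Aldoa (chr1:198228387-198233588) had 12973, 12864 and 12637 normalized counts in TNF-α and 30724, 35554 and 35095 in TNF-α+EMO. These levels did not overlap and were 2.63-fold higher with EMO (log2 fold change 1.40, SE 0.06, edgeR adjusted p = 5.0e-09). Aldoc, the brain isoenzyme, had 36.3, 43.9 and 33.1 normalized counts in TNF-α and 3.09, 2.05 and 3.06 in TNF-α+EMO. Its counts with EMO were at or under the floor of 3, and Aldoc was lower (edgeR adjusted p = 4.5e-06). With the floor of each library in place of these counts, it was 12.3-fold lower. That value is not a strict lower bound, because counts this close to 3 could come from a true level above the floor.

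**Figure D2:**
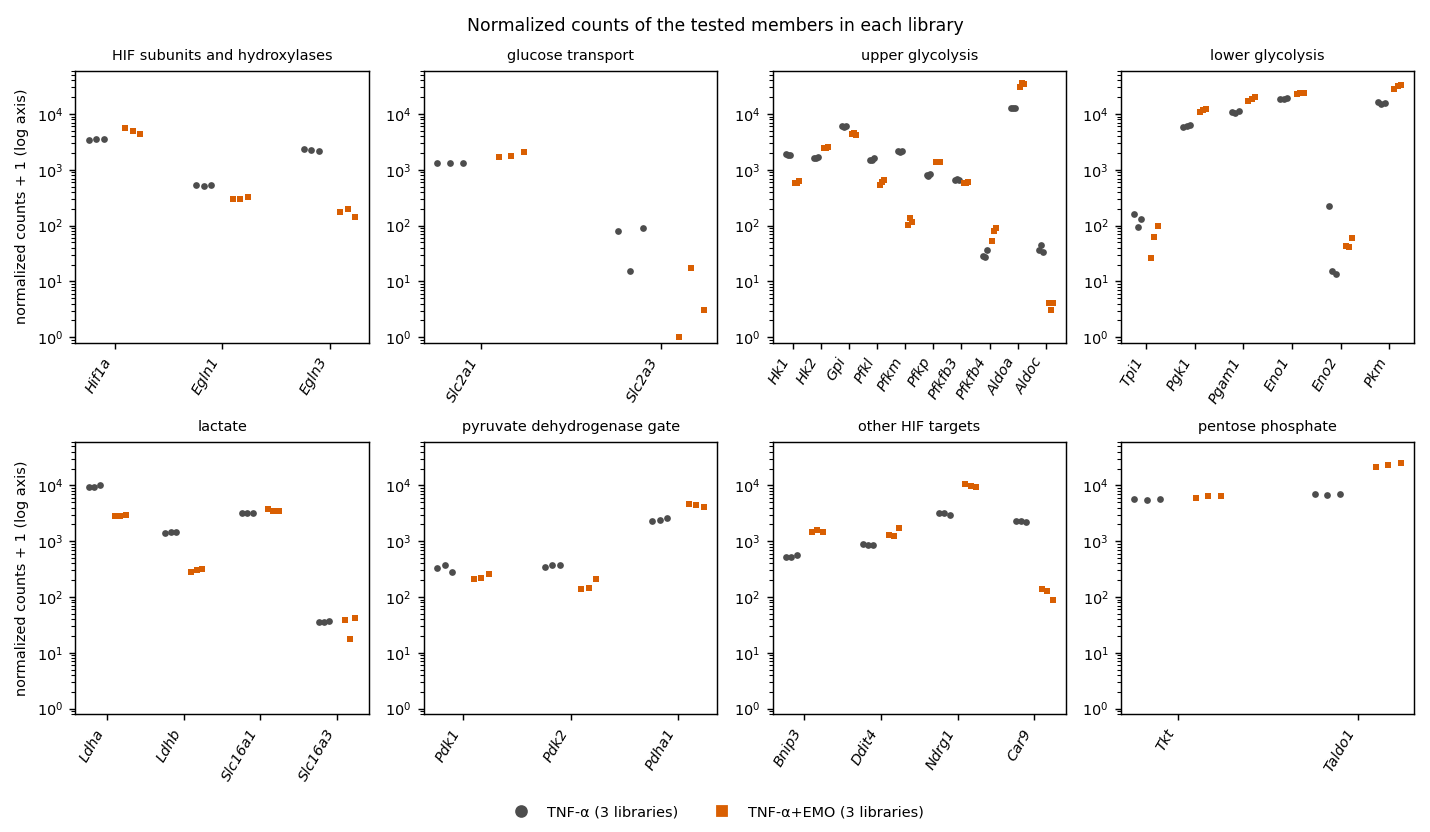
Normalized counts plus 1 (log axis) of the 34 tested members in each library, 1 panel per role, grey circles for the 3 TNF-α libraries and orange squares for the 3 TNF-α+EMO libraries, in replicate order from left to right. The groups are apart for 30 members and overlap for Slc2a3, Tpi1, Eno2 and Slc16a3.

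In lower glycolysis 4 of the 6 tested members, the abundant ones, rose, and the 2 others (Tpi1 and Eno2) did not pass the test. Phosphoglycerate kinase (Pgk1), which makes the first ATP of the pathway, rose from 6075 ± 214 to 11624 ± 738 normalized counts (log2 fold change 0.94, SE 0.06, edgeR adjusted p = 1.2e-07). Phosphoglycerate mutase (Pgam1) rose from 10835 ± 378 to 18554 ± 1387 (0.78, SE 0.07, edgeR adjusted p = 7.8e-07). Enolase 1 (Eno1) rose the least, from 18761 ± 551 to 23732 ± 733 (0.34, SE 0.05, edgeR adjusted p = 0.00012). Pyruvate kinase (Pkm), the last step, rose from 15157 to 16155 normalized counts in TNF-α to 28467 to 33499 in TNF-α+EMO. Its log2 fold change of 1.00 (SE 0.07, edgeR adjusted p = 1.1e-07) lay just under the threshold of 1. Pgk1, Eno1 and Pkm have near-identical copies elsewhere in the genome that could share their reads. For Pkm the listed copies held 5.91% to 9.64% of the joint counts, for Eno1 2.72% to 3.54%, and for Pgk1 at most 0.0086%, and adding them gave log2 fold changes of 0.97, 0.34 and 0.94.

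Tpi1 and Eno2 lie near each other on chromosome 4, and both have a near-identical gene on chromosome 9 that could share their reads. Tpi1, the triosephosphate isomerase, had 161, 93.6 and 128 normalized counts in TNF-α and 25.8, 61.4 and 98.8 in TNF-α+EMO, with 1 library of each group overlapping. Its log2 fold change of -1.04 (SE 0.43) did not pass the edgeR test (adjusted p = 0.052), and did so without TNF-α replicate 2 (-1.29, edgeR adjusted p = 0.040) or TNF-α+EMO replicate 3 (-1.52, 0.0029). The copy, LOC100911515, held 72.9% to 94.7% of the joint counts. Tpi1 and its copy together had 1085, 1443 and 2119 counts in TNF-α and 475, 334 and 358 in TNF-α+EMO. These sums did not overlap, and their log2 fold change was -1.92 (SE 0.30, edgeR adjusted p = 0.0017). An antisense gene, LOC100911548, overlaps Tpi1 and had at most 71 counts, and the strand setting of the counting is not given in the sources used here. Eno2, the neuronal enolase, had 223, 14.6 and 12.7 normalized counts in TNF-α and 42.3, 39.9 and 59.1 in TNF-α+EMO. The log2 fold change of -0.82 (SE 1.27, edgeR adjusted p = 0.58) rested on TNF-α replicate 1: without that library it was 1.71 (edgeR adjusted p = 0.0020). With the copy, which held 7.35% to 87.7% of the joint counts, it was 0.47 (SE 0.87, edgeR adjusted p = 0.64).

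No row carried the name Gapdh. Both rows with the name LOC108351137 were described in the table as glyceraldehyde-3-phosphate dehydrogenase, the enzyme between triosephosphate isomerase and phosphoglycerate kinase, and are given here as non-members. The row on chromosome 4 (chr4:157676595-157679962) had 17108, 16969 and 18189 normalized counts in TNF-α and 6849, 7857 and 7281 in TNF-α+EMO. It fell by 1.25 on the log2 scale (SE 0.06, edgeR adjusted p = 1.3e-08). The row on chromosome 5 fell by 1.05 (SE 0.18, edgeR adjusted p = 0.0013), from 5195 ± 336 to 2507 ± 618 normalized counts. Reads of these rows could be shared with each other and with other near-identical copies.

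Of the lactate genes, both lactate dehydrogenase subunits fell and neither transporter passed the test. Lactate dehydrogenase A (Ldha, chr1:102900286-102909707), which favours the reduction of pyruvate to lactate and is a standard HIF target, had 9464, 9306 and 10079 normalized counts in TNF-α and 2840, 2854 and 2909 in TNF-α+EMO. The TNF-α+EMO libraries lay within a narrow range, all far below the lowest TNF-α library. Ldha was 3.35-fold lower (log2 fold change -1.75, SE 0.06, edgeR adjusted p = 3.7e-10). Ldhb, which favours the reverse reaction, had 1411, 1434 and 1485 normalized counts in TNF-α and 280, 310 and 316 in TNF-α+EMO. It was 4.78-fold lower, again without overlap (log2 fold change -2.26, SE 0.08, edgeR adjusted p = 6.2e-10). Slc16a1 (MCT1), which carries lactate in and out, was at 3241 ± 38.6 and 3549 ± 131 normalized counts (log2 fold change 0.13, SE 0.06, edgeR adjusted p = 0.051). It passed without TNF-α+EMO replicate 2 (0.17, edgeR adjusted p = 0.046) or replicate 3 (0.17, 0.0077). Slc16a3 (MCT4), the hypoxia-inducible exporter, was low, at 35.5 ± 0.493 and 32.1 ± 13.7 normalized counts (log2 fold change -0.14, SE 0.34, edgeR adjusted p = 0.71), and its value was 0.20 without TNF-α+EMO replicate 2.

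At the entry of pyruvate into the mitochondrion, the catalytic subunit rose and the inhibitory kinases fell. Pdha1, the E1α subunit of pyruvate dehydrogenase, rose from 2443 ± 152 to 4421 ± 241 normalized counts (log2 fold change 0.86, SE 0.07, edgeR adjusted p = 4.7e-07). A listed copy held 6.70% to 9.03% of its joint counts, and with it the log2 fold change was 0.85. The pyruvate dehydrogenase kinases phosphorylate and switch off this subunit. Pdk2 had 351, 370 and 381 normalized counts in TNF-α and 137, 143 and 209 in TNF-α+EMO. TNF-α+EMO replicate 3 was the highest of its group and still below every TNF-α library (log2 fold change -1.17, SE 0.16, edgeR adjusted p = 4.0e-05). Pdk1, the kinase induced by HIF, fell by 0.55 (SE 0.13, edgeR adjusted p = 0.0028), from 330 ± 43.0 to 225 ± 25.2 normalized counts.

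The other HIF targets split, with 3 higher and 1 lower. Car9 (chr5:59008933-59015528), the membrane carbonic anhydrase used as a marker of hypoxia, had 2307, 2273 and 2236 normalized counts in TNF-α and 140, 129 and 86.6 in TNF-α+EMO. It was 19.1-fold lower (log2 fold change -4.26, SE 0.14, edgeR adjusted p = 4.1e-10), the lowest log2 fold change of all members over the 6 libraries, and the groups were far apart. Ndrg1, a stress and hypoxia response gene, had 3172, 3254 and 2994 normalized counts in TNF-α and 10594, 9949 and 9313 in TNF-α+EMO. It was 3.17-fold higher without overlap (log2 fold change 1.66, SE 0.07, edgeR adjusted p = 1.6e-09). Bnip3, a receptor for the removal of mitochondria by autophagy, had 522, 530 and 568 normalized counts in TNF-α and 1447, 1565 and 1481 in TNF-α+EMO. It was 2.77-fold higher (log2 fold change 1.47, SE 0.07, edgeR adjusted p = 9.3e-09). Ddit4 (REDD1), an inhibitor of mTORC1, rose from 839 to 882 normalized counts in TNF-α to 1226 to 1695 in TNF-α+EMO (log2 fold change 0.71, SE 0.11, edgeR adjusted p = 0.00015), with TNF-α+EMO replicate 3 the highest.

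In the pentose phosphate pathway, transaldolase and transketolase exchange carbon between its sugars and those of glycolysis. Taldo1 (chr1:214375515-214385885), the transaldolase, had 7039, 6611 and 6988 normalized counts in TNF-α and 21069, 23048 and 25320 in TNF-α+EMO. Every TNF-α+EMO library was far above the TNF-α libraries, and the 3.36-fold rise was the largest of all members over the 6 libraries (log2 fold change 1.75, SE 0.07, edgeR adjusted p = 2.0e-09). Without TNF-α+EMO replicate 3 it was 1.70, below the 1.73 of Ndrg1. Tkt, the transketolase, changed little by comparison, from 5651 ± 126 to 6280 ± 247 normalized counts (log2 fold change 0.15, SE 0.06, edgeR adjusted p = 0.028). The call of Tkt was lost without TNF-α replicate 1 (edgeR adjusted p = 0.37), 2 (0.41) or 3 (0.21) or TNF-α+EMO replicate 2 (0.052), and its log2 fold change was 0.04 (0.55) when counts were scaled by library totals only.

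Levels of different genes were compared per kilobase of the deposited gene length, and the share of each isoenzyme was taken of its family's summed level on this scale. A family here holds members only, so that Hk3, Eno3, Pdk3 and Pfkfb2, for example, are left out. Pdk3 (404 in TNF-α and 230 in TNF-α+EMO per kilobase) was above Pdk1 and Pdk2 in both groups. Pfkfb2 (34.2 and 123) was close to Pfkfb3 (141 and 124) in TNF-α+EMO. Hk2 made up 30.3% ± 0.592 (SD, n = 3) of hexokinase in TNF-α and 67.5% ± 0.565 in TNF-α+EMO, so that the more abundant hexokinase mRNA changed from Hk1 to Hk2. Within phosphofructokinase, Pfkm made up 44.2% ± 0.964 in TNF-α and 4.63% ± 0.642 in TNF-α+EMO. Pfkp went from 21.9% ± 0.535, the smallest share of the family, to 70.3% ± 1.77, the largest. Pfkl held 33.9% ± 0.872 and 25.1% ± 1.52. The shares of the libraries did not overlap between groups in either family.

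Among their members, the other families changed less or kept 1 dominant gene. Ldha made up 84.8% ± 0.304 of lactate dehydrogenase in TNF-α and 88.8% ± 0.555 in TNF-α+EMO, although both subunits fell. Pfkfb4 went from 9.36% ± 1.56 to 22.4% ± 4.56 of the pair with Pfkfb3, and Pdk1 from 40.9% ± 3.80 to 52.0% ± 3.06 of the pair with Pdk2. Slc2a1 made up 92.7% ± 4.70 and 99.4% ± 0.869 of the pair with the uncertain Slc2a3, and Aldoa 99.7% ± 0.0394 of the aldolases in TNF-α and nearly all in TNF-α+EMO. In 7 of 9 families the exact two-sided permutation test gave p = 0.1 (0.129 after Benjamini-Hochberg adjustment), which is the smallest p that 3 libraries against 3 allow, and it was 1.0 for enolase and 0.7 for the monocarboxylate transporters. Hif1a held the whole HIF-α level of the pair with Epas1.

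**Figure D3:**
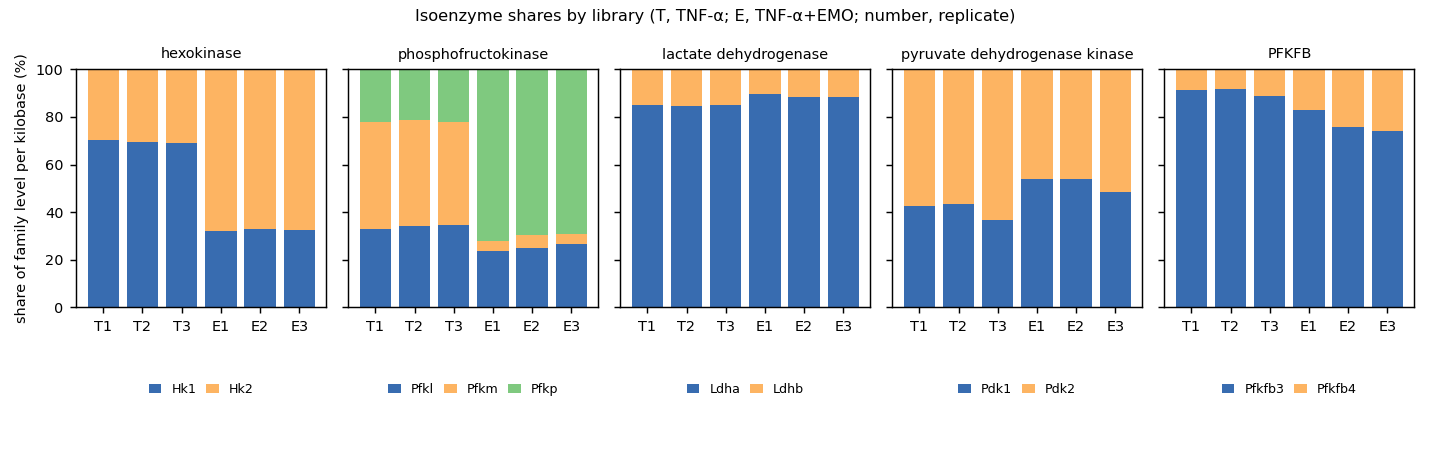
Share of each isoenzyme in the summed level per kilobase of the members of its family (percent, vertical axis) in each library, T1 to T3 for TNF-α and E1 to E3 for TNF-α+EMO. The shares change hands in hexokinase (Hk2 30.3% to 67.5%) and phosphofructokinase (Pfkp 21.9% to 70.3%, Pfkm 44.2% to 4.63%), and Ldha stays above 84% of lactate dehydrogenase in every library.

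Summed over the members of each step, the mRNA level per kilobase did not move in 1 direction along the pathway. The only non-members in these sums are the Tpi1 copy and the glyceraldehyde-3-phosphate dehydrogenase rows. Other genes of the same steps are left out, among them Slc2a8 (mean 207 in TNF-α and 151 in TNF-α+EMO per kilobase), Hk3 (29.4 and 61.2) and Eno3 (319 and 58.7). Adpgk, an ADP-dependent glucokinase (418 and 656), is left out as well. Adpgk and Hk3 were higher with EMO, so the hexokinase sum describes Hk1 and Hk2 only and not all phosphorylation of glucose. These sums are descriptions without a test. Glucose transport went from 553 ± 25.6 to 729 ± 81.2 normalized counts per kilobase (1.32-fold higher), hexokinase from 1004 ± 8.16 to 684 ± 26.3 (1.47-fold lower), glucose 6-phosphate isomerase from 3021 ± 57.4 to 2159 ± 65.5 (1.40-fold lower) and phosphofructokinase from 1649 ± 37.7 to 866 ± 31.1 (1.91-fold lower). The loss of Pfkm and Hk1 thus exceeded the gain of Pfkp and Hk2 on this scale. Aldolase went from 7988 ± 108 to 20990 ± 1656 (2.63-fold higher). Triosephosphate isomerase, counted with its copy, went from 666 to 1277 in the TNF-α libraries to 215 to 303 with EMO (3.76-fold lower by the means), and the glyceraldehyde-3-phosphate dehydrogenase rows, with the limits given above, went from 21399 ± 925 to 9250 ± 806 (2.31-fold lower). Phosphoglycerate kinase, phosphoglycerate mutase, enolase and pyruvate kinase, the 4 steps that follow, were 1.91-fold, 1.71-fold, 1.26-fold and 2.00-fold higher. Lactate dehydrogenase went from 7088 ± 280 to 2017 ± 35.4 (3.51-fold lower), while the monocarboxylate transporters stood at 1320 ± 15.3 and 1442 ± 55.5.

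**Figure D4:**
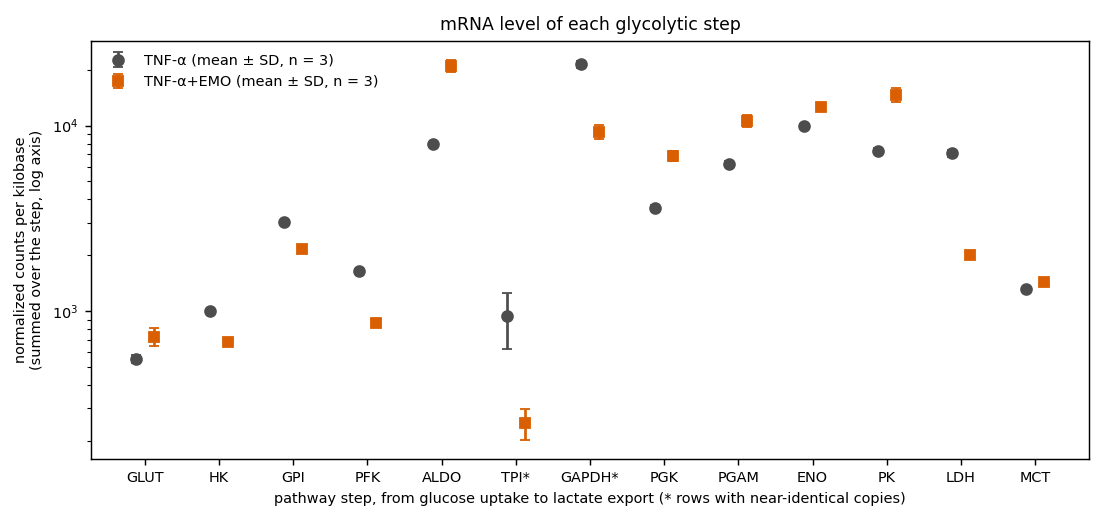
Summed mRNA level of the members of each glycolytic step (for GAPDH, of the non-member rows given in the text) in normalized counts per kilobase (log axis). Steps run from glucose transport (GLUT) to lactate export (MCT), with mean ± SD of 3 libraries per group. HK, GPI, PFK, TPI, GAPDH and LDH are lower with EMO and ALDO, PGK, PGAM, ENO and PK are higher; TPI and GAPDH (asterisks) rest on rows with near-identical copies, and TPI includes its copy.

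The order of the members changed with these differences. Per kilobase, Eno1 was the highest member in TNF-α at 9921 ± 291, followed by Aldoa at 7966 ± 107 and Pkm at 7333 ± 235. In TNF-α+EMO, Aldoa was the highest at 20988 ± 1656 and Taldo1 was 2nd at 18711 ± 1720. Their ranges over the libraries overlapped, although Aldoa was above Taldo1 within each TNF-α+EMO library, and the difference was not tested. Pkm kept rank 3 at 14651 ± 1213, and Eno1 went to rank 4 at 12550 ± 388. Ldha went from rank 5 (6010 ± 255) to rank 10 (1792 ± 23.0), and Car9 from rank 11 to rank 27. Together the found members took 0.734% to 0.767% of all counts in TNF-α and 1.02% to 1.09% in TNF-α+EMO.

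A further 70 genes of the same pathways that are no members were examined, of which 63 were tested. Of these, 31 rose and 22 fell and 10 did not pass, so that 84.1% passed against 80.9% of all genes tested. A log2 fold change beyond 1 in either direction was reached by 28 (44.4%), close to the 47.3% of all genes tested. Beyond that threshold 17 of these 63 genes were higher and 11 lower. Of all genes tested, fewer were higher (19.5%) than lower (27.8%). This contrast was not tested, and the list was chosen with earlier results of these data known. In the HIF pathway 1 of 6 rose (Vhl, the ubiquitin ligase subunit that binds hydroxylated HIF-α, 0.38, SE 0.08) and 1 fell (Cited2, which competes with HIF for its coactivator, -0.91, SE 0.08), and 4 did not pass. In glycolysis 6 of 14 rose and 8 fell, led by G6pc3, a glucose 6-phosphatase (2.22, SE 0.07, from 1445 ± 86.1 to 6718 ± 237 normalized counts), and Eno3, the muscle enolase (-2.44, SE 0.21, from 456 ± 15.6 to 83.9 ± 28.2). In the lactate and pyruvate group 7 of 14 rose and 5 fell. Its leading genes were Pdhx, a component of the pyruvate dehydrogenase complex (1.59, SE 0.08), and Emb (embigin), which escorts monocarboxylate transporters to the membrane (-2.16, SE 0.09).

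Of the other pentose phosphate genes 5 of 8 rose and 2 fell. Shpk, which phosphorylates sedoheptulose, had 59.8, 44.9 and 34.1 normalized counts in TNF-α and 490, 421 and 447 in TNF-α+EMO. It rose by 3.29 on the log2 scale (SE 0.18, edgeR adjusted p = 2.2e-08), and Prps2, which makes the ribose donor of nucleotides, fell by 1.90 (SE 0.10, edgeR adjusted p = 1.4e-08). The following 4 genes were chosen after their values were seen. Pgls, the lactonase (1.19, SE 0.12, edgeR adjusted p = 9.6e-06), Rpia, the ribose isomerase (1.05, SE 0.08, edgeR adjusted p = 5.0e-07), and Rpe, the epimerase (0.89, SE 0.09, edgeR adjusted p = 2.6e-06), rose. Rpia had 771, 740 and 871 normalized counts in TNF-α and 1578, 1571 and 1768 in TNF-α+EMO, without overlap. H6pd, an enzyme of the pathway in the endoplasmic reticulum, was lower (-1.85, SE 0.07, edgeR adjusted p = 7.2e-10).

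Among 21 further HIF targets tested, 12 rose, 6 fell and 3 did not pass, and the 85.7% that passed compare with 80.9% of all genes tested. Stc2 (stanniocalcin 2), a secreted glycoprotein, had 27.5, 27.3 and 33.1 normalized counts in TNF-α and 1466, 1600 and 2042 in TNF-α+EMO, a 57.9-fold higher level (log2 fold change 5.85, SE 0.17, edgeR adjusted p = 1.5e-10). Lox (lysyl oxidase), which crosslinks collagen, had 38338, 39800 and 38601 normalized counts in TNF-α and 114, 87.0 and 86.6 in TNF-α+EMO. It was 405-fold lower (log2 fold change -8.66, SE 0.10, edgeR adjusted p = 8.1e-13).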

How the data were processed

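The members and lists were chosen with earlier results of these data known. Of the 38 names, 35 matched the table and Car9 was matched through its RefSeq synonym Ca9. The authors' provider prepared poly(A)-selected libraries, and per the submitters' processing notes reads were handled with FastQC and Trimmomatic and aligned with HISAT2 (2.0.5 in the study's methods) to Rnor_6.0. The counting program, annotation version and strand setting are not given in the sources used here. The authors deposited raw counts per gene, which were used for every test, and FPKM values, from which isoenzyme shares are the same by construction, since both divide counts by gene length. The authors also deposited group means as a score (scaled counts), log2 fold changes and p-values of their own comparison, which were not used.

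A gene was tested if 3 or more libraries held 10 or more of its counts (13614 of 34156). After TMM scaling the model was fitted in edgeR 4.0.16 under R 4.3.3 (robust quasi-likelihood F test, Benjamini-Hochberg adjustment over all genes tested, common biological coefficient of variation 0.121), with no covariate. The standard error is the log2 fold change divided by the square root of F. To give normalized counts, each library was scaled by its effective size to the mean size of the 6, and levels per kilobase were divided by the deposited gene length. Shares were tested with an exact permutation test (scipy 1.17.1). On simulated counts in which 189 of 13404 genes were changed, edgeR recovered 92.1% of the 189 with 5.95% false calls. A setting with as large a share of changed genes as the 80.9% that passed here was not tested. The floor of 3 counts covers counting error alone, because the reads carry no molecular identifiers and need not be separate molecules. Library values were given for members with an adjusted p under 0.05 and a log2 fold change beyond 1 in either direction, and of the other pathway genes the 2 with the largest change per group with a mean of at least 100 counts were named, with exceptions stated. DESeq2 1.42.0, other scalings, filters and thresholds, a replicate term, leaving out each library and adding near-identical copies were the alternatives.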

Additional observations from a re-analysis of the deposited data

How the results depend on the processing

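Over 16 alternatives the number of members passing the test was 27 to 31 (30 as reported), and 27 of the 34 tested members kept their direction and their side of the threshold in every alternative that gave them a value. Aldoc had none in 4 (at least 50 counts in 3 libraries, and without each TNF-α replicate), because too few libraries then passed the filter. The other 7 were Slc2a3, Pfkfb3, Tpi1, Eno2, Slc16a1, Slc16a3 and Tkt. The median log2 fold change of the members, -0.01 as reported, was -0.12 with library totals only, 0.23 with at least 50 counts in 3 libraries, 0.14 with a replicate block, 0.14 with the counts of the copies added, and -0.02 to 0.17 with 1 library left out. The median of all genes tested was also -0.12 with library totals only, so log2 fold changes depend on the scaling by about this size. It was -0.13 without a filter on low counts, where low genes were added and the median of the members was -0.01. Eno2 turned to 0.26 with the replicate block and to 0.47 with its copy, and ranged from -1.4 to 1.71 with 1 library left out, where Slc16a3 ranged from -0.36 to 0.20. Adding the copies brings in rows with other values, and the cause of the other shifts was not tested. DESeq2 called 30 members, with Tpi1 passing (adjusted p = 0.0088) and Pfkfb3 at 0.050.

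The replicate numbers did not pair the libraries: the correlations of same-numbered deviations were 0.0193, -0.00683 and 0.0676. With the replicate block 27 members passed, and Slc2a3 (adjusted p = 0.18), Pfkfb3 (0.075) and Tkt (0.053) did not. Members with under about 100 counts (Slc2a3, Eno2, Slc16a3, Pfkfb4, Aldoc) are limited by depth.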

Other observations

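Genes of the same pathways outside the naming rule were chosen here after their values were seen, and are given as values. Vegfa, the angiogenic growth factor induced by HIF, rose from 2098 ± 191 to 7054 ± 554 normalized counts (log2 fold change 1.75, SE 0.08, edgeR adjusted p = 6.5e-09), while Adm (adrenomedullin), a vasodilator peptide, fell from 1045 ± 93.0 to 32.4 ± 7.74 (-5.00, SE 0.15, edgeR adjusted p = 1.5e-10). Plod2, a collagen lysyl hydroxylase, fell from 7557 ± 253 to 373 ± 48.2 (-4.34, SE 0.09, edgeR adjusted p = 1.7e-11). The collagen prolyl hydroxylase subunits differed in direction, with P4ha1 at 0.79 (SE 0.07, edgeR adjusted p = 7.4e-07) and P4ha2 at -0.80 (SE 0.06, edgeR adjusted p = 3.8e-07). Bnip3l, the close relative of Bnip3, rose by 1.36 (SE 0.06, edgeR adjusted p = 2.3e-09).

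In the regulators of fructose 2,6-bisphosphate, Pfkfb2 rose from 155 ± 7.96 to 554 ± 5.54 normalized counts (1.84, SE 0.09, edgeR adjusted p = 1.2e-08), and Tigar, a phosphatase that lowers this activator, from 237 ± 35.7 to 667 ± 33.1 (1.49, SE 0.11, edgeR adjusted p = 3.2e-07). Pfkfb1 went the other way, from 150 ± 12.3 to 92.5 ± 9.38 (-0.70, SE 0.16, edgeR adjusted p = 0.0021). In pyruvate oxidation the carrier subunits Mpc1 (0.75, SE 0.08, edgeR adjusted p = 3.9e-06) and Mpc2 (1.03, SE 0.15, edgeR adjusted p = 0.00024) rose with Pdhb (1.39, SE 0.07, edgeR adjusted p = 7.2e-09) and Dld (0.92, SE 0.07, edgeR adjusted p = 3.1e-07). Dlat, the core of the same complex, fell by 0.17 (SE 0.07, edgeR adjusted p = 0.047), and the phosphatase Pdp1, which reactivates it, fell by 1.06 (SE 0.12, edgeR adjusted p = 1.1e-05).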
